A study of Margaritifera margaritifera with 32 samples.

Results

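The kidney of the freshwater pearl mussel, Margaritifera margaritifera, was sampled in 2009 and 2010 at 2 sites of one river, 1 upstream and 1 downstream of a dump. A site by year interaction asks whether the difference between the sites changed from one year to the other. It was measured for each assembled contig as the downstream minus upstream difference of 2010, less the same difference of 2009, on the log2 scale. All 32 libraries entered the comparison, and 226 of 51264 contigs tested (0.441%) had a site difference that changed between the years, at a Benjamini-Hochberg adjusted p under 0.05 in edgeR's quasi-likelihood test. The contrast was above 0 for 225 of them (0.439% of the contigs tested) and below 0 for 1 (0.00195%). In all 226 the fitted site difference changed sign between the years. The contrast chose these contigs, and some fitted differences lay near 0 in 1 year, as at -0.09 in 2009. The number of calls depended strongly on single libraries, on scaling and on whether age class or lane entered the model, as given at the end.

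Each library held total RNA from the kidney of 1 wild animal, with no treatment given. The 4 groups were upstream 2009, downstream 2009, upstream 2010 and downstream 2010, with 8 animals in each. Sampling fell in April in 2009 and in March in 2010, so year and month of sampling cannot be told apart. The animals' age classes were unevenly spread. Upstream 2009 held 3 young, 4 middle-aged and 1 old animal, and downstream 2009 held 0 young, 1 middle-aged and 7 old animals. Upstream 2010 held 4 young, 3 middle-aged and 1 old animal, and downstream 2010 held 3 young, 3 middle-aged and 2 old animals.

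The bivalve kidney takes back solutes and, in many species, stores metals in granules. Cells under chemical or thermal stress commonly adjust protein synthesis, RNA processing and programmed cell death. Several of the named contigs described here match genes of those processes, and a link to stress was not tested. In bulk tissue, a lower level can come from fewer cells of a type or from less RNA per cell, and the libraries cannot tell these apart. The name of a contig is that of its closest known match, and identity was not tested. Of the 226 contigs, 176 had no name beyond a running number (77.9%, against 61.2% of the contigs tested). LOC identifiers made up 38 (16.8%, against 30.4% of the contigs tested) and locus tags of other forms 6 (2.65%, against 5.73%). Names of genes or proteins made up 6 (2.65%, against 2.73%).

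Library totals ran from 55.7 M to 190 M counted reads, with a median of 77.5 M (M, megareads). The TMM scaling factors, which adjust for the make-up of each library, had medians of 0.875 in upstream 2009, 0.964 in downstream 2009, 1.1 in upstream 2010 and 1.26 in downstream 2010. Replicates 7 and 8 of downstream 2009 stood apart within their group with the lowest factors of all, 0.503 and 0.524, and upstream 2009 replicates 4, 7 and 3 followed at 0.601, 0.607 and 0.667. The 8 index sequences were not shared between groups, so index and group cannot be told apart, whereas each of the 4 lanes held 2 animals of every group. The unit CPM is reads per megaread of TMM-scaled library size. Contigs of the list named for kidney and ion transport summed to a median of 632 CPM in upstream 2009, 347 in downstream 2009, 598 in upstream 2010 and 518 in downstream 2010. Those of the muscle list had median sums of 1192, 1593, 832 and 850 CPM in the same order. Their highest sums were 6969 CPM in downstream 2009 replicate 8 and 5418 and 4643 CPM in upstream 2010 replicates 6 and 8. The haemocyte list had median sums of 34.0, 41.1, 30.1 and 27.6 CPM. No contig name matched the gonad list, and the part of these cell types in the calls was not tested.

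The group means had 1 predominant shape. Among the 225 contigs with a contrast above 0, downstream animals had the lower fitted mean in 2009 and the higher one in 2010. The median site difference over these contigs was -0.56 in 2009 (range -2.35 to -0.09) and 0.81 in 2010 (range 0.34 to 1.55). Over all contigs tested, the median site differences were -0.046 and 0.021. The contrast itself had a median of 1.34 and ran from 0.68 to 3.27, with a median SE of 0.294. The contrast chose these contigs, so their shape is a description. A sign change between the years is common without a call: among all contigs with a contrast above 0, 13109 of 25857 (50.7%) had one. All 226 also crossed in arithmetic means of CPM.

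**Figure D1:**
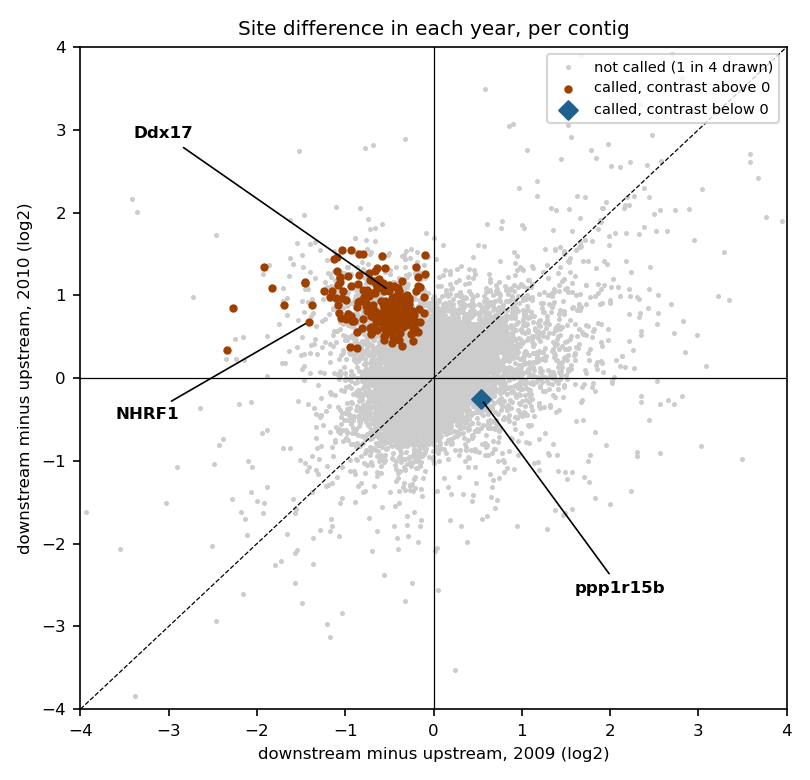
Site difference (downstream minus upstream, log2) of each contig in 2009 (horizontal axis) and 2010 (vertical axis); 1 in 4 of the contigs not called is drawn, those beyond 4 in size are not, and the dashed line marks equal differences. The 225 contigs with a contrast above 0 lie in the upper left quadrant, and ppp1r15b lies in the lower right.

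Most of the change between years lay at the downstream site. From 2009 to 2010 the downstream mean differed by a median of 1.43 over the 225 contigs (quartiles 1.1 and 1.77), and the upstream mean by a median of 0.048 (quartiles -0.14 and 0.26). Downstream 2010 was the highest group for 220 of the 225 (97.8%), and downstream 2009 the lowest for 206 (91.6%). Both held for 204 contigs. As all 225 crossed the same way, only downstream 2010 or upstream 2009 could be the highest group. Likewise, only downstream 2009 or upstream 2010 could be the lowest. The contrast chose these contigs, and the shares over all contigs tested were not computed. One group was taken to stand apart where its gap to the nearest group mean exceeded the range of the other 3. Downstream 2010 stood apart as the highest group for 117 contigs (52%) and downstream 2009 as the lowest for 18 (8%). Upstream 2009 stood apart as the highest for 2 contigs and upstream 2010 as the lowest for 1, while no group stood apart for the remaining 87. The site difference was larger in size in 2010 than in 2009 for 184 of all 226 contigs.

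**Figure D2:**
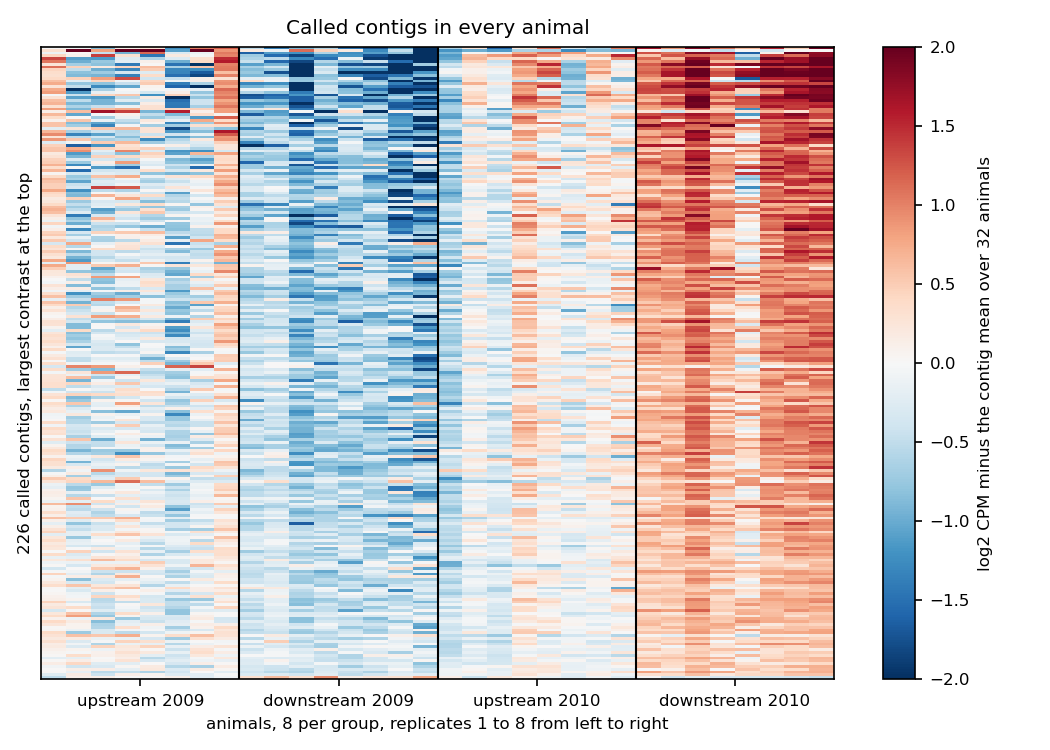
Level of the 226 called contigs (rows, largest contrast at the top) in each of the 32 animals (columns, by group), as log2 CPM less the contig's mean over all animals; the colours end at 2 either way. Downstream 2010 is the highest group for 220 of the 225 contigs with a contrast above 0, and the bottom row is ppp1r15b.

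The animals separated less completely than the means. All 8 downstream 2010 animals lay above all 8 upstream 2010 animals for 50 of the 225 contigs (22.2%), against 470 of all contigs tested (0.917%). They lay above all 8 downstream 2009 animals for 167 (74.2%), against 1712 of all contigs (3.34%). In 2009 all 8 downstream animals lay below all 8 upstream animals for 2 of the 225 (0.889%), against 5 of all contigs (0.00975%). The contrast that chose the contigs uses these same levels, so nothing is read from the shares. At the threshold, the last contig called had a contrast of 2.58 with an SE of 0.62 (adjusted p = 0.04999, edgeR). The first one not called had 1.00 with an SE of 0.24 (adjusted p = 0.0508).

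Summed per animal, the 225 contigs had the same pattern as their means. In upstream 2009 the sum was lowest at 919 CPM, had a median of 1138 and was highest at 1534. In downstream 2009 these values were 734, 814 and 1001 CPM. In upstream 2010 they were 818, 1206 and 1572 CPM, and in downstream 2010 they were 1507, 2098 and 2503 CPM. Downstream 2010 overlapped upstream 2010 at its lower end, where replicate 5, an old animal, had 1507 CPM.

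The order of the age classes in these sums differed between the groups. The 2 old downstream 2010 animals had 1507 and 1971 CPM, the 3 middle-aged ones 1888 to 2503 CPM and the 3 young ones 1835 to 2426 CPM. The only middle-aged downstream 2009 animal had 734 CPM, the lowest of all, and the 7 old ones had 772 to 1001 CPM. Both years' upstream groups held 1 old animal each, at 1058 CPM in 2009 and 1288 CPM in 2010. The young upstream animals had 919 to 1534 CPM in 2009 and 1116 to 1572 CPM in 2010. The middle-aged upstream animals had 1086 to 1444 CPM in 2009 and 818 to 1154 CPM in 2010. These same animals had entered the choice of the 225 contigs, so the sign of the contrast within an age class is no independent check. Among the old animals alone, 199 of the 225 contigs had a contrast above 0, with a median of 0.73 (-0.0575 over all contigs fitted). Among the middle-aged animals alone all 225 did, with a median of 2.00 (0.0821 over all contigs fitted). Downstream 2009 then rested on 1 animal, as both upstream groups did among the old. Neither subset called any of the 225.

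**Figure D3:**
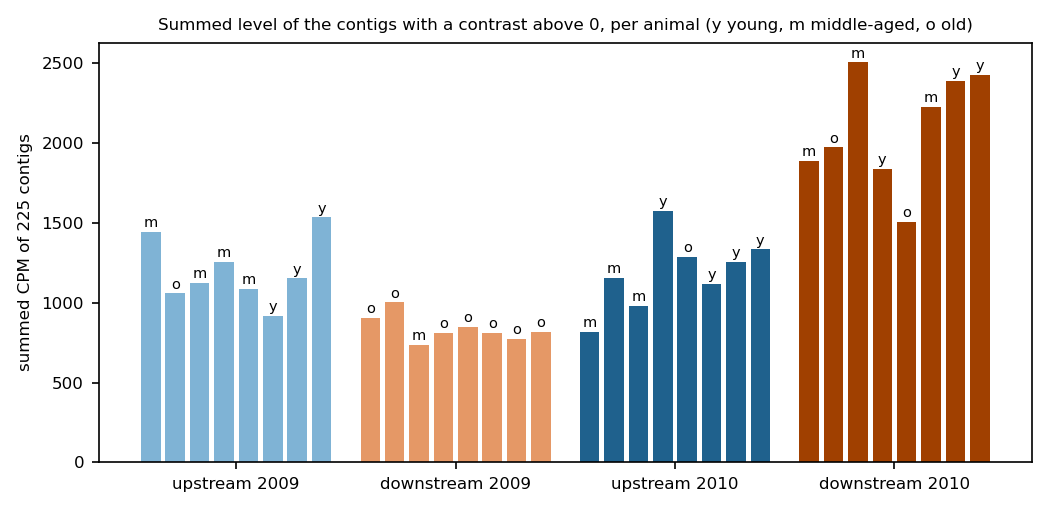
Summed CPM of the 225 contigs with a contrast above 0 in each animal (bars, 8 per group, replicates 1 to 8 from left to right), with the age class of the animal above its bar. Downstream 2010 runs from 1507 to 2503 CPM, and downstream 2009 from 734 to 1001 CPM.

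The contrast was also computed within each lane, on animals that had entered the choice of the 225 contigs, so its sign there is no independent check. Within lane 1 the contrast was above 0 for 221 of the 225 contigs, with a median of 0.83, and within lanes 2, 3 and 4 for all 225, with medians of 1.78, 1.37 and 1.36. Each of these within-lane values rests on 2 animals per group. The medians over all contigs tested in the 4 lanes were 0.0445, 0.198, 0.0294 and 0.0296.

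Among the named contigs, 2 act on RNA. Ddx17 matches a DEAD-box RNA helicase that in mammals takes part in splicing and transcription. Its level was 20.1 CPM at lowest, 38.2 at the median and 74.6 at highest in upstream 2009, and 15.7, 31.2 and 44.6 CPM in downstream 2009. In upstream 2010 it was 24.7, 40.8 and 48.8 CPM, and in downstream 2010 it was 34.4, 84.8 and 115 CPM. Of the 8 downstream 2010 animals, 7 lay above all 16 animals of upstream 2010 and downstream 2009, and the remaining one was replicate 5. The contrast was 1.56 with an SE of 0.34 (adjusted p = 0.0347, edgeR), from a site difference of -0.50 with an SE of 0.24 in 2009 and of 1.06 with an SE of 0.24 in 2010. Among the old animals alone the Ddx17 contrast was -0.07, with an SE of 0.95.

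TRMT44.2.2 matches a methyltransferase that modifies a uridine of transfer RNA. It had 3.64 CPM at lowest, 7.41 at the median and 13.4 at highest in upstream 2009, and 2.12, 4.80 and 6.24 CPM in downstream 2009. In upstream 2010 the values were 3.49, 8.23 and 12.3 CPM, and in downstream 2010 they were 4.66, 16.7 and 23.4 CPM. Downstream 2010 stood apart as the highest group for this contig, with 7 of 8 animals above all animals of upstream 2010. The contrast was 1.75 with an SE of 0.40 (adjusted p = 0.0402, edgeR). The other contig of this name, TRMT44.1.2, had a contrast of 0.48 with an SE of 0.28 and was not called (adjusted p = 0.604).

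ADHX.4.4 matches class III alcohol dehydrogenase, which clears formaldehyde bound to glutathione. Its levels were low, at 1.49, 2.34 and 3.55 CPM (lowest, median and highest) in upstream 2009 and 1.08, 1.56 and 2.02 CPM in downstream 2009. They were 1.53, 2.91 and 3.97 CPM in upstream 2010 and 2.69, 4.85 and 6.11 CPM in downstream 2010. All 8 downstream 2010 animals lay above all downstream 2009 animals, as for 1712 of all contigs (3.34%), and 7 of 8 above all upstream 2010 animals. The contrast was 1.30 with an SE of 0.28 (adjusted p = 0.0345, edgeR), and no group stood apart. The other 3 contigs of this name had contrasts of 0.65, 0.25 and 0.32 and were not called (lowest adjusted p 0.810).

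NHRF1 and DIAP2.1.3 had another shape, with upstream 2009 as the highest group. NHRF1 matches a scaffold protein that in the mammalian kidney binds a sodium-hydrogen exchanger and phosphate transporters at the apical membrane. Its level was 4.22, 13.2 and 25.4 CPM (lowest, median and highest) in upstream 2009 and 1.90, 5.21 and 10.1 CPM in downstream 2009. It was 4.80, 6.35 and 8.97 CPM in upstream 2010 and 6.06, 10.2 and 16.3 CPM in downstream 2010. The upstream 2009 animals were widely spread and overlapped every other group. The contrast was the largest among the named contigs called, 2.09 with an SE of 0.46 (adjusted p = 0.0347, edgeR). The site difference was -1.41 with an SE of 0.33 in 2009 and 0.68 with an SE of 0.32 in 2010.

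DIAP2.1.3 matches an inhibitor of apoptosis that in Drosophila blocks caspases and acts in immune signalling. It had 3.81, 6.94 and 12.3 CPM in upstream 2009, 2.42, 3.85 and 5.09 CPM in downstream 2009, 3.23, 3.70 and 6.57 CPM in upstream 2010 and 3.24, 5.29 and 6.48 CPM in downstream 2010 (lowest, median and highest). The 4 groups overlapped, and upstream 2009 stood apart as the highest by its mean. The contrast was 1.33 with an SE of 0.31 (adjusted p = 0.0441, edgeR), made up of -0.95 in 2009 and 0.38 in 2010, each with an SE of 0.22. The other contigs of this name, DIAP2.2.3 and DIAP2.3.3, had contrasts of -0.19 and -0.43 (adjusted p = 0.984 and 0.368). Where copies are alike, reads could be split between contigs of 1 name.

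The single contig with a contrast below 0 was ppp1r15b. In mammals its product directs a phosphatase to the initiation factor eIF2alpha and so restores translation. Its level was 2.82, 4.05 and 4.35 CPM (lowest, median and highest) in upstream 2009 and 4.42, 5.07 and 7.72 CPM in downstream 2009. It was 2.96, 3.76 and 4.67 CPM in upstream 2010 and 2.89, 3.08 and 3.93 CPM in downstream 2010. All 8 downstream 2009 animals lay above all 8 upstream 2009 animals, the only contig of all tested with that order (0.00195%). They also lay above all 8 downstream 2010 animals, as for 869 contigs (1.7%). The contrast was -0.79 with an SE of 0.18 (adjusted p = 0.0454, edgeR), from 0.54 in 2009 and -0.25 in 2010, each with an SE of 0.13. Downstream 2009 stood apart as the highest group.

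**Figure D4:**
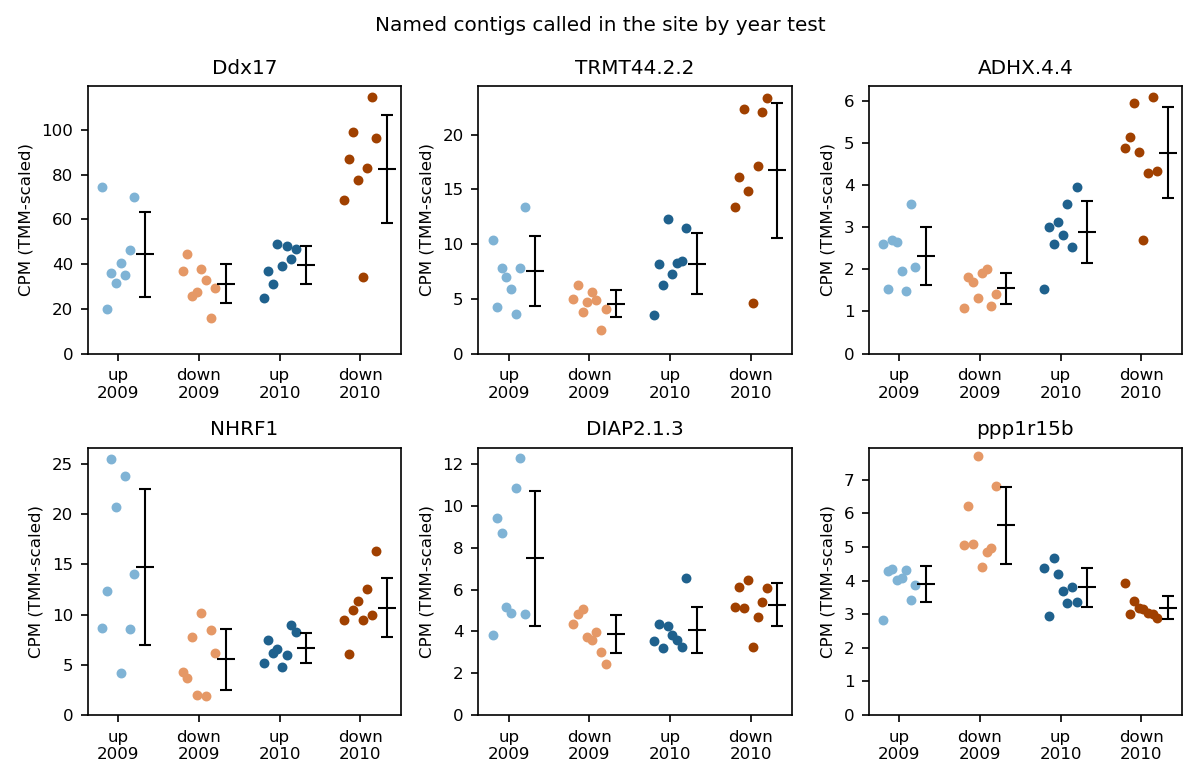
Level in CPM (TMM-scaled, vertical axes from 0) of the 6 named contigs called, 1 point per animal and 8 animals per group; the bar beside each group is its mean ± SD. Downstream 2010 is highest for Ddx17, TRMT44.2.2 and ADHX.4.4, upstream 2009 for NHRF1 and DIAP2.1.3, and downstream 2009 for ppp1r15b.

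The contigs with the smallest p-values carried no gene name. BRAFLDRAFT_73452 had mean levels of 1.87 CPM ± 0.540 (SD, n = 8) in upstream 2009, 1.14 ± 0.302 in downstream 2009, 1.13 ± 0.174 in upstream 2010 and 2.57 ± 0.718 in downstream 2010. LOC105342965 had 4.30 CPM ± 1.30, 2.77 ± 0.926, 3.18 ± 0.650 and 6.86 ± 0.885 in the same order. In both, all 8 downstream 2010 animals lay above all animals of upstream 2010, as for 470 of all contigs (0.917%). They also lay above all animals of downstream 2009, as for 1712 (3.34%). Both contigs were picked by smallest p, which rests on these same levels. Their contrasts were 1.91 with an SE of 0.29 and 1.74 with an SE of 0.27 (adjusted p = 0.00779 for each, edgeR). Both were called whichever of the 32 libraries was left out, which held for none of the 6 named contigs.

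Other named contigs with small p-values were not called. Above 0, these were TNFRSF6B, a decoy receptor of the tumour necrosis factor family, at 1.00 with an SE of 0.26 (adjusted p = 0.0703), and cdk19, a kinase of the Mediator complex, at 1.37 with an SE of 0.37 (adjusted p = 0.0766). XIAP.5.6, ADA1B and nphs1 had contrasts of 1.02, 1.70 and 0.87 (adjusted p = 0.0855, 0.0932 and 0.114). Below 0, the contrasts were -3.28 for Odc.3.6 (ornithine decarboxylase, of polyamine synthesis), -1.92 for Rnf169, -1.53 for HEPH (hephaestin, a copper-dependent ferroxidase), -1.0 for HPSE and -1.48 for Masp2.2.2. They were -3.20 for Dhrs7C, -1.88 for ACHA2, -1.95 for NALD2 and -1.20 for RB3GP. Their SEs ran from 0.36 for HPSE to 1.23 for Dhrs7C. Odc.3.6 had a median of 1.21 CPM and a highest of 13.7 CPM in downstream 2009, and HEPH had 56.9 and 226 CPM there. Rnf169 had a median of 0.987 CPM and a highest of 8.84 CPM in upstream 2010. The adjusted p-values of these 9 named contigs ran from 0.153 to 0.295 (edgeR). Without a gene name, LOC106072854 and LOC105348653.2.2 had contrasts of -0.77 and -0.78 and were not called (adjusted p = 0.064 and 0.071, edgeR). At an adjusted p under 0.1, 740 contigs lay above 0 (1.44%) and 7 below (0.0137%). Across all contigs, 4420 had an unadjusted p under 0.05 with a contrast above 0 (8.62%) and 1137 with one below 0 (2.22%).

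Pathway lists held few calls by edgeR, set here beside the 0.441% called and the 8.62% and 2.22% at an unadjusted p under 0.05 among all contigs. Of 27 contigs named for RNA helicases and splicing, 1 was called, Ddx17, and 4 above 0 and 2 below had an unadjusted p under 0.05. The 27 had estimates above 0 for 7 and below 0 for 20, with a median of -0.27 against 0.0047 over all contigs tested. Among its uncalled members, u2surp, of splicing, had 1.38 with an SE of 0.50 (adjusted p = 0.219), and DDX5.1.2, the close relative of Ddx17, had 0.49 with an SE of 0.19 (adjusted p = 0.268). Of 20 contigs of tRNA and RNA modification, 1 was called, with 1 above 0 and 0 below at an unadjusted p under 0.05 (median -0.22). Of 41 inhibitors of apoptosis and caspases, 1 was called, with 14 estimates above 0 and 27 below (median -0.18), and 4 above and 1 below had an unadjusted p under 0.05. Among its uncalled members Xiap and NAIP had 1.02 and 0.98 (adjusted p = 0.126 and 0.168). Of 18 kidney and ion transport contigs, 1 was called, NHRF1, and 2 above 0 and 1 below had an unadjusted p under 0.05 (median -0.047, or 0.13 when scaled by library totals). Of 13 translation factors, 1 was called, ppp1r15b, with 2 estimates above 0 and 11 below (median -0.39) and 0 above and 1 below at an unadjusted p under 0.05. Limma-voom, with 7.94% of all contigs called, called 6 of the 27 RNA helicase and splicing contigs and 4 of the 18 kidney and ion transport contigs. It called 4 of the 41 inhibitors of apoptosis and caspases, 1 of the 20 tRNA and RNA modification contigs and 1 of the 13 translation factors.

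The remaining lists held 0 calls by edgeR. DESeq2, which called 1.83% of all contigs, called 1 of the 27 immune contigs and 0 in the others. Muscle contigs had estimates below 0 for all 17 (median -1.34) but for 2 of 17 by limma-voom (median 0.11) and 7 of 17 among old animals alone (median 0.41). By edgeR 7 were at an unadjusted p under 0.05, led by the tropomyosin TPM.9.10 at -1.66 with an SE of 0.70 (adjusted p = 0.332). Actins and tubulins had 30 of 33 estimates below 0 (median -0.91), with TBA2 at -2.09 (adjusted p = 0.341). Without downstream 2009 replicates 7 and 8, the muscle median was -0.73 and the actin and tubulin median -0.055. Ribosomal proteins had 34 of 39 estimates below 0 (median -0.63) with all 32 libraries, and 38 of 39 above 0 (median 0.38) without these 2 animals. The ribosomal median was also above 0 with age class and lane terms (0.070) and among old animals alone (0.85). Without downstream 2009 replicates 7 and 8 the median changed sign in 10 of 23 lists, among them inhibitors of apoptosis (0.040), tRNA and RNA modification (0.045), kidney and ion transport (0.083), immune contigs (0.054), metal handling (0.094) and oxidative phosphorylation (0.26). It changed sign in 14 lists among old animals alone, in 5 with age class and lane terms and in 3 with an age class term alone.

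Lists linked to pollutant exposure were among those with 0 calls by edgeR and DESeq2. Limma-voom called 7.94% of all contigs. In the lists with 0 calls by edgeR it called 2 of 8 metal handling contigs, 1 of 8 chaperones, 1 of 5 ABC transporters, 5 of 18 contigs of viruses and mobile elements, 3 of 27 immune contigs and 2 of 83 zinc finger contigs, and 0 in the others. Of 17 oxidative stress contigs 4 had estimates above 0 and 13 below (median -0.20, 0 at an unadjusted p under 0.05), including the superoxide dismutase SODC.2.3 at -1.21 with an SE of 0.64 (adjusted p = 0.517). Of 8 metal handling contigs 3 lay above 0 and 5 below (median -0.53, 1 at an unadjusted p under 0.05), including the zinc transporter slc30a8.3.3 at -0.80 with an SE of 0.38 (adjusted p = 0.432). Of 8 chaperones 1 lay above 0 and 7 below (median -0.46, 1 at an unadjusted p under 0.05), including HS71B at -1.02 (adjusted p = 0.458). The 4 cytochrome P450 contigs had a median of 0.11 (-0.03 by limma-voom) and the 5 ABC transporters one of 0.18 (0 and 1 at an unadjusted p under 0.05), with MRP3.1.2 at 1.04 with an SE of 0.40 (adjusted p = 0.258). With an age class term the medians were -0.084 for cytochrome P450 and -0.067 for ABC transporters. Of 18 contigs named for viruses and mobile elements 13 lay above 0 (median 0.32, 5 at an unadjusted p under 0.05), with LIN1.1.2 at 1.08 with an SE of 0.35 (adjusted p = 0.148). Of 27 immune contigs 9 lay above 0 and 18 below (median -0.22), of 27 contigs of oxidative phosphorylation 9 and 18 (median -0.11, or 0.03 when scaled by library totals), and of 83 zinc finger contigs 33 and 50 (median -0.079, or 0.053 when scaled by library totals). A missed threshold does not show that these groups kept their site difference between the years.

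The count of calls rested on single animals. With 1 library left out at a time, 35 to 827 contigs were called above 0. All 225 kept a contrast above 0 in each of these 32 fits, which reuse the libraries that chose them, so nothing is read from that. Leaving out upstream 2009 replicate 1, 4, 6, 7 or 8 gave 36, 77, 384, 131 or 42 calls. Leaving out downstream 2009 replicate 3, 4, 5, 6 or 8 gave 35, 81, 128, 91 or 629. Leaving out upstream 2010 replicate 1, 2, 3, 4, 5, 6 or 7 gave 42, 43, 36, 631, 63, 77 or 87. Leaving out downstream 2010 replicate 2, 3, 5, 6, 7 or 8 gave 127, 36, 827, 64, 46 or 40. The other 9 libraries moved the count by less than 1.5 times. Scaling by RLE size factors gave 136 calls above 0, and scaling by library totals gave 1. With age class as a term, 36 contigs were called above 0, of which 31 were among the 225. The median contrast of the 225 was then 1.28. With that term none of the 6 named contigs was called: ADHX.4.4, DIAP2.1.3 and ppp1r15b had 1.1, 1.23 and -0.76 (adjusted p = 0.141, 0.114 and 0.131, edgeR), and Ddx17, NHRF1 and TRMT44.2.2 had 1.29, 1.78 and 1.42 (adjusted p = 0.164, 0.135 and 0.190). With lane as a term 93 contigs were called above 0, and the 6 named contigs again missed the threshold, at adjusted p-values from 0.0507 for NHRF1 to 0.0702 for TRMT44.2.2 (edgeR). With 1 library left out, ADHX.4.4 was called in 17 of 32 fits, NHRF1 in 16, Ddx17 in 14, TRMT44.2.2 in 11, ppp1r15b in 10 and DIAP2.1.3 in 8, with adjusted p-values of at most 0.0933.

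**Figure D5:**
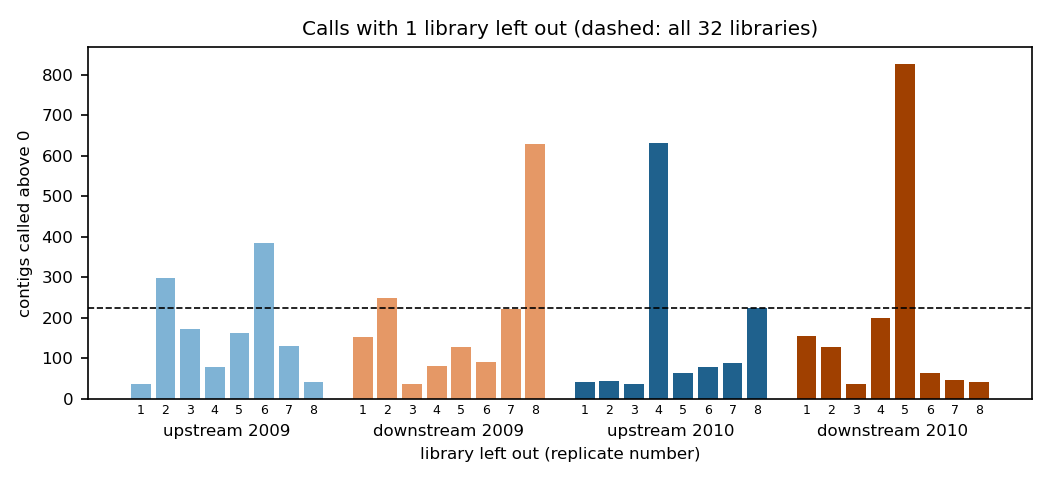
Number of contigs called with a contrast above 0 (vertical axis) when 1 library is left out (bars, numbered by replicate within each group); the dashed line is the count of 225 with all 32 libraries. The counts run from 35 without downstream 2009 replicate 3 to 827 without downstream 2010 replicate 5.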

How the data were processed

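Kidney RNA of 32 mussels was made into TruSeq libraries, per the labels. The authors deposited raw read counts per assembled contig as 1 table of the whole series. The submitters' processing notes name BWA 0.7.12 and SAMtools 1.1. How contigs were assembled and named and the treatment of reads matching several contigs are not given in the sources used here, and contig sequences and lengths were not used here.

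Contigs were kept by filterByExpr (minimum count 10, minimum total 15), which left 51264 of 51392, 1400 of them named. A quasi-likelihood model with 4 group means and TMM factors was fitted in edgeR 4.0.16 (R 4.3.3), and the interaction was tested two-sided, with p-values adjusted over all contigs tested. The fit was first run on simulated counts, drawn independently for each contig. That run does not bear on how the number of calls moved with single libraries. The SE given with an edgeR contrast or site difference was derived from the test, as its size over the square root of the F statistic. The common biological coefficient of variation was 55.3%. CPM values are TMM-scaled. Samples were grouped by their labelled site and year. Alternatives were RLE scaling, other filters, age class and lane terms, limma-voom (limma 3.58.1), DESeq2 1.42.0 and libraries left out.

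Members, lists and the rule for named contigs were chosen with earlier results of these data known. The rule took up to 15 named contigs called in each direction by size of contrast, where the highest group averaged 1 CPM or more, filled by smallest p to 10 where fewer were called. It added up to 4 contigs of smallest p from each list with a call, the 1 of smallest p from other lists described, and at most 2 unnamed contigs per direction.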

Additional observations from a re-analysis of the deposited data

Results flagged for a closer look

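The site difference changed between the years for 225 contigs with a contrast above 0 and for 1 below 0, by the interaction test itself (edgeR). Among the named contigs called, the contrasts were 2.09 for NHRF1, 1.75 for TRMT44.2.2, 1.56 for Ddx17, 1.33 for DIAP2.1.3, 1.30 for ADHX.4.4 and -0.79 for ppp1r15b. Among those without a gene name, they were 1.91 for BRAFLDRAFT_73452 and 1.74 for LOC105342965. One animal lay far from the others of its group: DIAP2.1.3 had 6.57 CPM in upstream 2010 replicate 8, and the next highest animal had 4.34 CPM. Of 36 groups examined this was the only one, where chance gives about 1 in 20.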

How the results depend on the processing

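The called contigs kept the sign of their contrast under each setting that fitted them, except with old animals only, where 199 of the 225 above 0 did. The same counts had chosen these contigs, so a kept sign is no independent check. The filter of at least 1 CPM in 8 libraries fitted 217 of the 225. The counts of calls moved far more than the contrasts, and the cause was not tested. Contigs called above 0 numbered 136 with RLE size factors, 36 with an age class term, 93 with a lane term and 65 with both terms, and below 0 they numbered 0 with the lane term and 2 with both. With limma-voom 3554 were called above 0 and 516 below, with DESeq2 905 and 35, and without downstream 2009 replicates 7 and 8 together 693 and 13. With 1 library left out, 35 to 827 were called above 0 and 0 to 13 below. Other filters left 209 and 220 above 0. Settings chosen after seeing the data gave 1 above 0 and 0 below with library totals only, 0 and 0 with old animals only, and 0 and 5 with middle-aged animals only. Scaling by library totals moved the median contrast of all contigs from 0.0047 to 0.17, and that of the 225 from 1.34 to 1.51. Of the 225, 136 were still called with RLE size factors, 31 with age class, 90 with lane, 224 with limma-voom and 225 with DESeq2. At an unadjusted p under 0.05, old animals alone gave 821 contigs above 0 and 393 below, and middle-aged animals 3934 and 2075. TRMT44.2.2 and DIAP2.1.3 were not called with RLE size factors (adjusted p = 0.0545 and 0.0578, edgeR).

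Some contrasts reversed, each of them uncalled except that of Ddx17. With age class and lane terms TCTP.2.2 was at 0.17. With limma-voom Dhrs7C was at 0.44, HS71B at 0.14 and TPM.9.10 at 0.033. Without downstream 2009 replicates 7 and 8, RL4A was at 0.069, EF1A.2.2 at 0.11 and TCTP.2.2 at 0.51. With old animals only, values below 0 were -0.071 for Ddx17, -0.29 for TNFRSF6B, -0.069 for cdk19, -0.52 for XIAP.5.6, -0.24 for u2surp, -0.74 for SRSF4, -0.74 for Xiap, -0.0060 for NAIP, -2.63 for EF1A.1.2, -0.30 for MRP3.1.2 and -0.084 for ZN680. Values above 0 were 0.19 for pusl1.2.2 and pusl1.1.2, 0.53 for RL4A, 0.54 for EF1A.2.2, 1.16 for TCTP.2.2 and 2.31 for DYH7. With middle-aged animals only, Odc.3.6 was at 0.068, RB3GP at 0.053, TCTP.2.2 at 0.052 and CP3A4 at -0.17. With 1 library left out DYH7 ran from -0.97 to 0.17, the latter without upstream 2010 replicate 8. The remaining results cover all contigs picked by the rule, most of them uncalled. Of these results, 2099 kept their direction and their side of the threshold, 159 lost and 42 gained a call. A contig that stayed uncalled counts as kept. Apart from libraries left out singly, 12 alternatives were fitted. NHRF1, Ddx17, ADHX.4.4 and ppp1r15b were each called in 6 of them, TRMT44.2.2 in 5 and DIAP2.1.3 in 4. BRAFLDRAFT_73452 was called in 10 and LOC105342965 in 9.

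No paired analysis was possible because the labels give no replicate number shared across groups. The contrast of 4 groups of 8 had SEs from 0.151 to 0.709 on the log2 scale among the 225 contigs, and the smallest contrast called above 0 was 0.68. A contrast of 1.00 with an SE of 0.24 missed the threshold, so what could be called depended on the spread of each contig between animals.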
